A study of Mus musculus with 6 samples.

Results

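The receptor chains of the common gamma chain cytokine family were followed in mouse natural killer (NK) cells, lymphocytes of the innate immune system with a killing function. The family was defined by name as 8 genes, Il2ra, Il2rb, Il2rg, Il15ra, Il7r, Il4ra, Il9r and Il21r, and 7 of them were read by a probe set annotated to that gene alone, out of 19935 genes tested. Il2rg, the gene of the common gamma chain itself, was not analysed here. Each of the 7 had 1 probe set, and no filter on low values was applied.

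The study put the total RNA of 6 cell preparations on 1-colour Affymetrix arrays, 3 for cells called IL-18 generated and 3 for cells called unstimulated. Per the labels, cells isolated on NK1.1 spent a night in medium that held 300 IU of IL-2 and 25 ng/ml of IL-18. The gate for the IL-18 generated cells was c-kit positive without CD11b, and that for the unstimulated cells was CD11b positive without c-kit, among live NK1.1 positive cells that lacked CD3. The labels attach the same culture text to every sample, and they leave unsaid whether the unstimulated cells were cultured or had IL-2. In every comparison below, IL-18, IL-2, culture and sort gate cannot be told apart. The sources used here do not give mouse strain, age or the number of animals behind a preparation. The design text calls the preparations independent, and the p-values refer to these 6 arrays only. For each gene, the limma fit drew the spread within groups toward that of all genes. The standard error (SE), interval and limma p-value of a gene therefore do not rest on its own spread alone.

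Receptors of this family pair a private chain with the common gamma chain, and they signal through the kinases JAK1 and JAK3 to STAT transcription factors. IL-2 and IL-15 share the beta chain encoded by Il2rb, each with an alpha chain of its own that adds affinity, encoded by Il2ra (CD25) and Il15ra. IL-7, IL-4, IL-9 and IL-21 bind the chains encoded by Il7r, Il4ra, Il9r and Il21r. IL-15 is known as the main survival factor of NK cells, and IL-2 as the cytokine that expands them in culture.

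Every value below is relative expression, the value of a gene, taken as log2, after its probe set was centred on the median of all 6 arrays. A change can be read from such values, but the level of a gene cannot, so levels of different chains are not compared and a gene that hardly varies need not have been detected at all. The centring also fixes part of the picture. For a gene with 1 probe set whose groups do not overlap, the array of each group nearest the other lies at the same distance from 0. In bulk RNA, fewer cells of a type and less RNA per cell cannot be told apart.

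In the IL-18 generated cells 4 of the 7 chains rose, 1 fell and 2 did not pass at a limma adjusted p below 0.05 (Benjamini-Hochberg over all genes). Il2ra rose by far the most, followed by Il7r, Il4ra and Il15ra with changes under 2-fold, while Il2rb fell. Across all genes, 36.4% passed this test, 19.7% as higher and 16.7% as lower. A change of at least 2-fold besides the adjusted p was reached by 1 of the 7, Il2ra, and by 6.86% of all genes. The groups did not overlap for 6 of the 7, and for 48.6% of all genes. The median log2 change was 0.52 over the 7 chains and -0.06 over all genes.

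**Figure D1:**
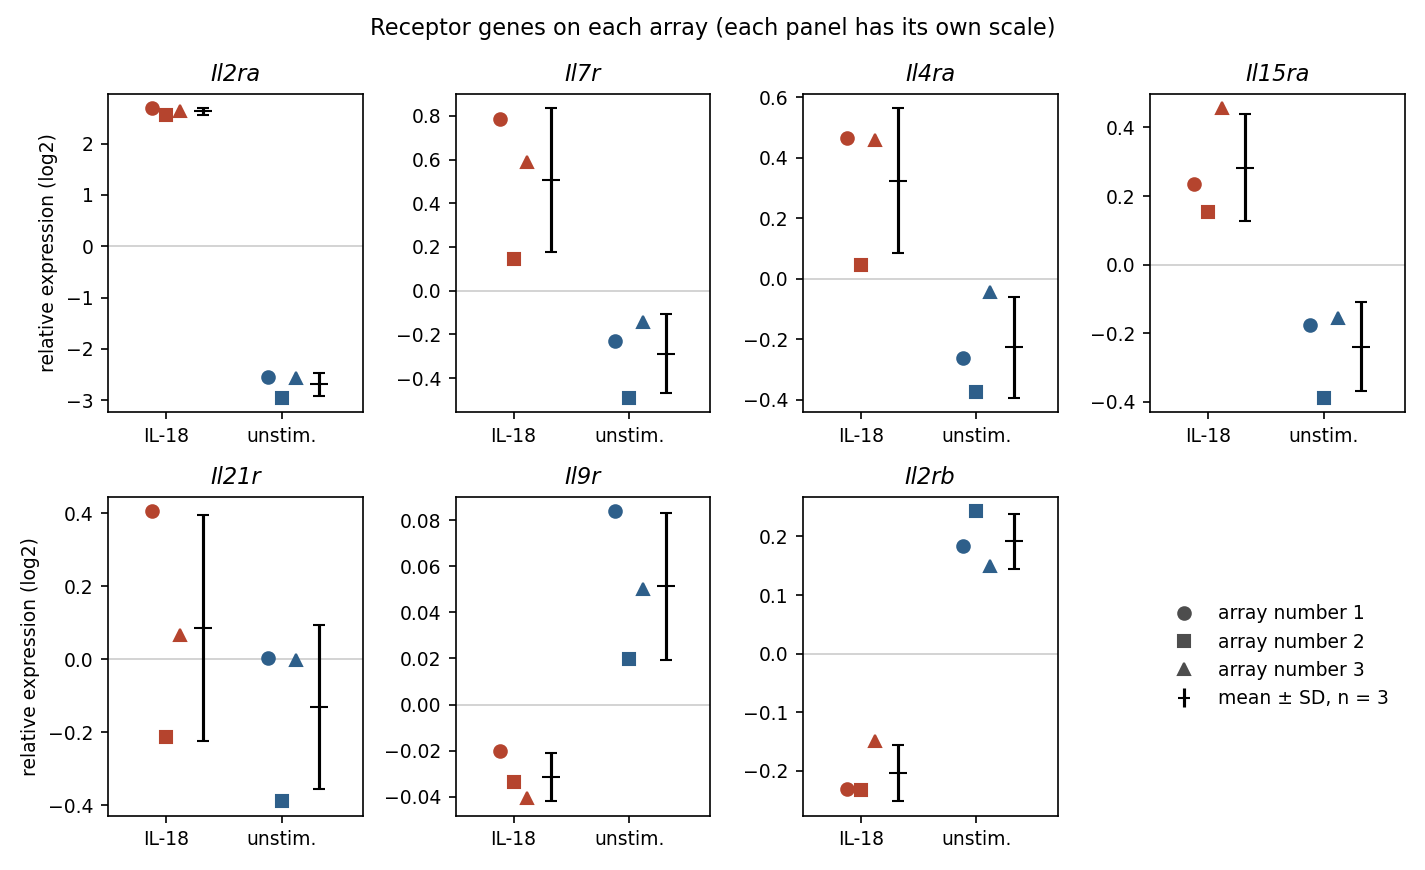
Relative expression (log2, vertical axis) of the 7 measured receptor genes on each array, IL-18 generated cells left and unstimulated cells right, with each panel on its own scale; symbols give the array number and bars the mean ± SD (n = 3). The groups are separate in every panel except Il21r, and the separation is 5.32 for Il2ra but only 0.08 for Il9r.

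Il2ra encodes the alpha chain that turns the IL-2 receptor of intermediate affinity into the high-affinity form. Its relative expression was 2.69, 2.56 and 2.64 on the IL-18 arrays, against -2.56, -2.95 and -2.57 on the unstimulated arrays. The means were 2.63 ± 0.07 and -2.69 ± 0.22 (SD, n = 3 each), so the gap between the groups was many times the spread within either. The log2 change was 5.32 ± 0.11 (SE), or 40.0-fold with a 95% interval of 33.8 to 47.4 (limma adjusted p 1.99e-09). By increase, Il2ra ranked 1 among the 19935 genes. With quantile normalization of the arrays the log2 change was 6.84, and without any single array it stayed between 5.19 and 5.39.

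The promoter windows shown are those of the 4 chains that rose, chosen by that call alone. They run from 250 bases before to 50 bases after the annotated transcription start. The sequences are from RefSeq, build GRCm38.p6, printed 5′ to 3′ on the strand of the gene, and capitals mark every match to 5 motifs searched on both strands. The motifs were STAT (TTCNNNGAA), NF-kB (GGGNNNNNCC), AP-1 (TGANTCA), FOXO (GTAAACA) and T-box (GGTGTGA). Il15ra has 2 annotated starts, and the window of the second is shown.
Il2ra, chr2:11642542-11642841, plus strand: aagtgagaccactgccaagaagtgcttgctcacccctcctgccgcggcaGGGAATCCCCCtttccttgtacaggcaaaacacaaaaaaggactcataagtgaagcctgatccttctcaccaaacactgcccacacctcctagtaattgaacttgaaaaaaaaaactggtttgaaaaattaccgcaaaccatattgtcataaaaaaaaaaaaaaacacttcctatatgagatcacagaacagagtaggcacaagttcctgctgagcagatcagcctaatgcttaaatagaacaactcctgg
Il7r, chr15:9529827-9530126, minus strand: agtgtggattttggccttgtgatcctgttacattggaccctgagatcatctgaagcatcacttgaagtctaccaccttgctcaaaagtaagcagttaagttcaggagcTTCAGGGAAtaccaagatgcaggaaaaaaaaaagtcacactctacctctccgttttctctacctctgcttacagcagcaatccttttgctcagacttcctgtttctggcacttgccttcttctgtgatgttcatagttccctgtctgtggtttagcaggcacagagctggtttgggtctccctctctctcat
Il4ra, chr7:125552021-125552320, plus strand: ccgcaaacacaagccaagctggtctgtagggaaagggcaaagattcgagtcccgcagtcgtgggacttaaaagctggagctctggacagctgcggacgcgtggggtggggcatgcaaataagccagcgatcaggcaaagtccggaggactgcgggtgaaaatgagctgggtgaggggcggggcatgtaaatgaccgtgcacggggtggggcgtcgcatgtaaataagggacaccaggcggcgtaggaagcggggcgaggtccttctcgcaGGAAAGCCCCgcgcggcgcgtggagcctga
Il15ra, chr2:11705462-11705761, plus strand: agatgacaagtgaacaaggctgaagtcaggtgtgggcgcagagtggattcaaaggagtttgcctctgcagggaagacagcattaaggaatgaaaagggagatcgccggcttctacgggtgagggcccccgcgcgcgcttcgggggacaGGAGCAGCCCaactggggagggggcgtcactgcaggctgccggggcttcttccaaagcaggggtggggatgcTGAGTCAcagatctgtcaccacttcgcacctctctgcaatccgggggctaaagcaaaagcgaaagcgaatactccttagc

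The Il2ra window held overlapping NF-kB matches on both strands, the first starting at position -201 from the transcription start, and no match to the other 4 motifs. The Il7r window held 1 STAT match, TTCAGGGAA, at -142. In the Il15ra window an AP-1 match, TGAGTCA, lay at -30 beside an NF-kB match at -102, whereas the window of its first start held none of the 5 motifs. The Il4ra window held 1 NF-kB match, 21 bases into the transcribed part. Among all 32851 promoter windows of this length, 50.8% held an NF-kB match, 8.30% a STAT match, 7.81% an AP-1 match, 3.98% a T-box match and 3.65% a FOXO match. The matches describe letters and not bound sites. Windows were matched for 6 of the 7 measured chains, all but Il2rb. Of the 2 chains that did not pass, Il21r had a window with an NF-kB match at -231 and a FOXO match at -38, and the Il9r window held none of the 5 motifs. Matches thus occurred in a window of a chain that did not pass as well.

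Il15ra encodes the alpha chain of the IL-15 receptor, which is known to present IL-15 to neighbouring cells as well as to bind it on the same cell. Relative expression was 0.24, 0.15 and 0.46 on the IL-18 arrays and -0.17, -0.39 and -0.15 on the unstimulated arrays. All 3 IL-18 arrays lay above all unstimulated arrays, but with a gap about as wide as the spread within a group. The means were 0.28 ± 0.16 and -0.24 ± 0.13 (SD, n = 3 each), and the log2 change was 0.52 ± 0.10 (SE), 1.44-fold (limma adjusted p 0.0020). Il15ra is the immediate coding neighbour of Il2ra on chromosome 2. The nearest measured coding genes flanking the pair, chosen by position after the data were seen, moved in different directions. Rbm17, a splicing factor gene, had a log2 change of 0.66 ± 0.14 and Pfkfb3, a regulator of glycolysis, of -0.62 ± 0.08, both passing limma's test (adjusted p 0.0036 and 0.000165). Fbh1 and Ankrd16 on the other side had changes of -0.16 ± 0.10 and -0.18 ± 0.11 and did not pass (limma adjusted p 0.269 and 0.224).

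Il2rb encodes the beta chain that carries the IL-2 and IL-15 signal and is known as a surface marker of the NK lineage. It was the only one of the 7 chains to fall. Relative expression was -0.23, -0.23 and -0.15 on the IL-18 arrays, against 0.18, 0.24 and 0.15 on the unstimulated arrays. The groups were separate and the spread within each was small, with means of -0.20 ± 0.05 and 0.19 ± 0.05 (SD, n = 3 each). The log2 change was -0.40 ± 0.07 (SE), which puts the IL-18 generated cells at 76.0% of the unstimulated value (limma adjusted p 0.0015). Markers of NK cells fell in the same arrays, 8 of 8 measured with log2 changes from -4.10 to -0.58, and the part of this in the Il2rb result was not tested.

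Il7r encodes the IL-7 receptor alpha chain, which is abundant on naive T cells and on helper-like innate lymphoid cells and low on most mature NK cells of the mouse spleen. Relative expression was 0.79, 0.14 and 0.59 on the IL-18 arrays and -0.23, -0.49 and -0.14 on the unstimulated arrays. The second IL-18 array lay closest to the unstimulated ones, so the IL-18 group was spread more widely than for any other chain, with a mean of 0.51 ± 0.33 against -0.29 ± 0.18 (SD, n = 3 each). The log2 change was 0.79 ± 0.15 (SE), 1.73-fold with a 95% interval of 1.37 to 2.19 (limma adjusted p 0.0019). Of the T cell markers, the 3 CD3 chain genes rose by 1.11 to 1.60 in the same arrays, and the other 5 measured (Cd4, Cd8a, Cd8b1, Cd5 and Cd6) had changes from -0.26 to -0.02 that did not pass. The mean of the 8 markers lay between 0.14 and 0.42 on the IL-18 arrays and between -0.27 and -0.04 on the unstimulated arrays. Of 4 measured markers of innate lymphoid cells, Rora rose by 2.57 ± 0.09, Zbtb16 and Il17rb fell with -1.17 ± 0.12 and -0.33 ± 0.11, and Gata3 did not pass at -0.14 ± 0.08. Their mean ran from -0.02 to 0.15 on the IL-18 arrays and from -0.22 to -0.05 on the unstimulated arrays. The part of such cells in the Il7r result was not tested, and with centred values no marker can be placed at or near a level of 0.

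Il4ra encodes the chain that binds IL-4 and, together with the chain encoded by Il13ra1, also IL-13. Relative expression was 0.47, 0.05 and 0.46 on the IL-18 arrays and -0.26, -0.37 and -0.05 on the unstimulated arrays. The groups were separate by a narrow margin, between the second IL-18 array and the third unstimulated array. The means were 0.32 ± 0.24 and -0.23 ± 0.17 (SD, n = 3 each), and the log2 change was 0.55 ± 0.13 (SE), 1.47-fold (limma adjusted p 0.0058). Leaving out single arrays gave changes from 0.48 to 0.69 and an adjusted p of at most 0.0267.

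Il21r, the gene of the IL-21 receptor, lies next to Il4ra on chromosome 7. Relative expression was 0.40, -0.21 and 0.07 on the IL-18 arrays, against 0.00, -0.39 and 0.00 on the unstimulated arrays to 2 decimals. The groups overlapped and both were spread widely, with means of 0.09 ± 0.31 and -0.13 ± 0.22 (SD, n = 3 each). The log2 change of 0.22 ± 0.16 (SE) did not pass (limma adjusted p 0.308), and its 95% interval of -0.13 to 0.56 includes the change found for Il4ra. Without the first IL-18 array the change was 0.06, and without the second it was 0.37, neither of which passed. Of the nearest measured coding genes flanking Il4ra and Il21r, also chosen by position afterwards, Nsmce1 fell with -0.45 ± 0.10 (limma adjusted p 0.0058), and Kdm8, Gtf3c1 and Gsg1l had changes from -0.16 to 0.11 that did not pass.

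Il9r, the gene of the IL-9 receptor, hardly varied. Relative expression was -0.020, -0.034 and -0.041 on the IL-18 arrays and 0.084, 0.020 and 0.050 on the unstimulated arrays. The means were -0.03 ± 0.01 and 0.05 ± 0.03 (SD, n = 3 each). The groups were separate, yet the log2 change of -0.08 ± 0.07 (SE) did not pass (limma adjusted p 0.385), with a 95% interval of -0.24 to 0.07. The spread within each group was smaller than that SE, which limma draws toward the spread of all genes. Whether Il9r was expressed at all cannot be read from centred values.

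In order of change the chains ran from Il2ra (5.32) over Il7r (0.79), Il4ra (0.55), Il15ra (0.52), Il21r (0.22) and Il9r (-0.08) to Il2rb (-0.40). The 95% interval of Il2ra overlapped that of no other chain. The intervals of Il7r, Il4ra, Il15ra and Il21r overlapped each other. So did those of Il9r and Il21r and those of Il9r and Il2rb. Such overlap is not a test of a difference, because the chains were read on the same arrays. The order within those sets was not tested. The arrays numbered 2 were the lowest of their group at once for 5 of the 7 chains, Il2ra, Il15ra, Il7r, Il4ra and Il21r, a pattern held by 12.6% of all genes and noticed after the values were seen. Leaving out both arrays numbered 2 left the counts at 4 higher and 1 lower.

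**Figure D2:**
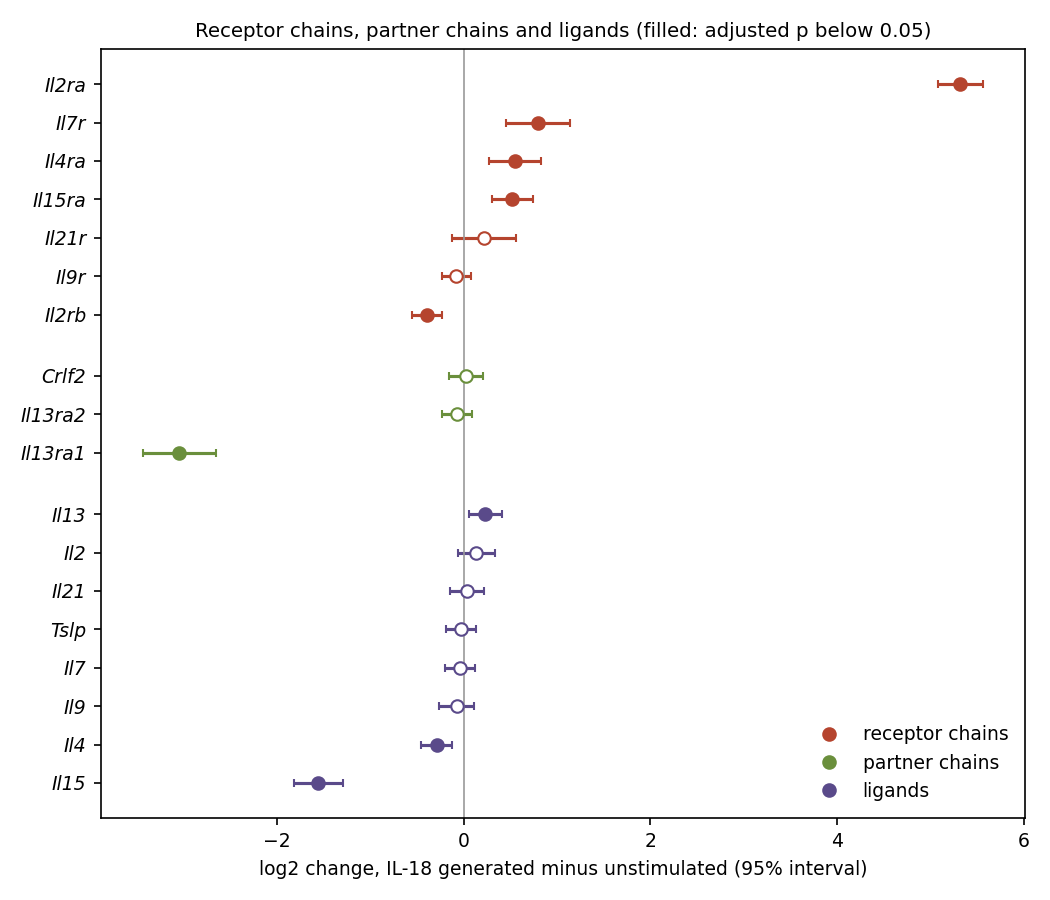
Log2 change with its 95% interval (horizontal axis, IL-18 generated minus unstimulated, 3 arrays each) for 7 receptor chains, 3 partner chains and 8 ligands; filled points passed at an adjusted p below 0.05. Il2ra stands alone at 5.32, and the largest decreases are those of the partner chain Il13ra1 at -3.05 and the ligand Il15 at -1.56.

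Of 3 chains that are partners or relatives of the family's members in other receptors, 1 fell and 2 did not pass. Over all genes, 19.7% rose and 16.7% fell. Il13ra1, which pairs with the Il4ra chain in the receptor for IL-13 found on non-lymphoid cells, had relative expression of -1.30, -1.55 and -1.67 on the IL-18 arrays and 1.32, 1.30 and 2.01 on the unstimulated arrays. The groups were far apart, and Il13ra1 fell to 12.1% of its unstimulated value (log2 change -3.05 ± 0.18, limma adjusted p 5.18e-07). Crlf2, which joins the Il7r chain in the receptor for TSLP, had a change of 0.03 ± 0.08, and Il13ra2, a decoy receptor for IL-13, one of -0.07 ± 0.07, and neither passed (limma adjusted p 0.825 and 0.474). Monocyte and macrophage markers fell in the same arrays, 7 of 7 measured with a median of -2.31, and their mean lay between -1.47 and -1.27 on the IL-18 arrays and between 1.20 and 1.77 on the unstimulated arrays. Neutrophil markers fell as well, 9 of 9 measured with a median of -3.09, and their mean lay between -1.42 and -1.08 on the IL-18 arrays and between 1.27 and 2.75 on the unstimulated arrays. The part of such cells in the Il13ra1 result was not tested.

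Changes of 2 genes were also set against each other within each array, which needs no expression level. Of 6 planned pairs, 4 could be formed, as Il2rg was not analysed. The SE of a pair difference came from the spread of that pair on the 6 arrays alone, without limma's use of all genes. The log2 changes of Il2ra and Il2rb differed by 5.72 ± 0.16 (SE), with Il2ra minus Il2rb values of 2.92, 2.79 and 2.79 on the IL-18 arrays and -2.74, -3.20 and -2.72 on the unstimulated arrays. The change of Il2ra exceeded that of its neighbour and close relative Il15ra by 4.80 ± 0.10, or 27.9-fold. For Il4ra and Il13ra1 the changes differed by 3.60 ± 0.21, with Il4ra minus Il13ra1 values of 1.77, 1.60 and 2.13 on the IL-18 arrays against -1.58, -1.67 and -2.05 on the unstimulated arrays. For Il7r and Crlf2 the difference was 0.77 ± 0.17. In all 4 pairs the groups did not overlap, and each gave a two-sided exact permutation p of 0.1 (0.1 after adjustment over the 4 pairs), the smallest that 3 against 3 arrays allow.

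**Figure D3:**
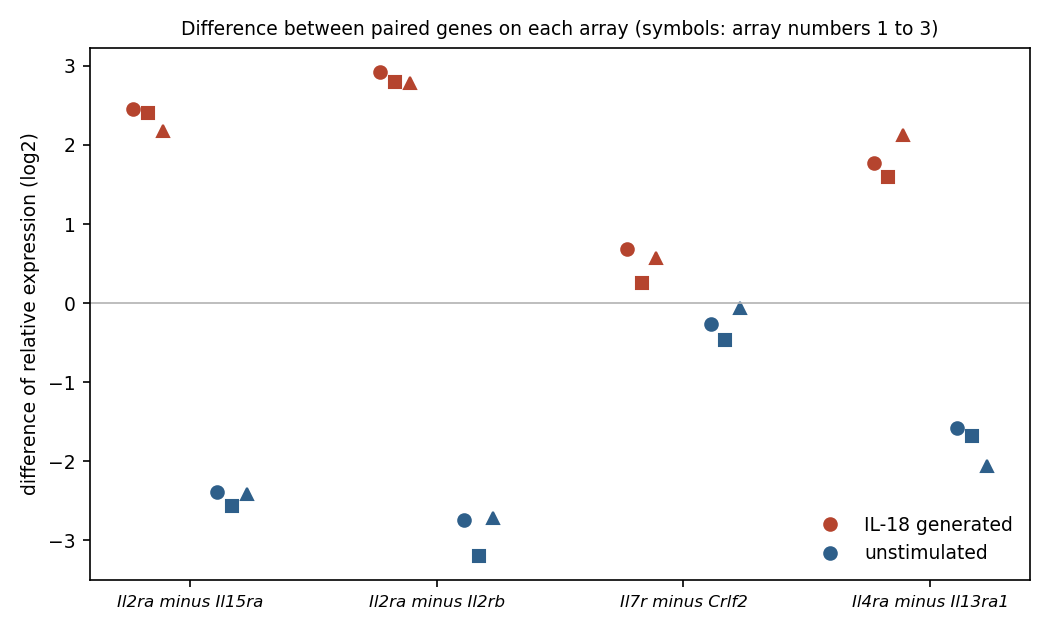
Difference of relative expression between 2 genes (log2, vertical axis) on each array for 4 pairs, IL-18 generated cells left of unstimulated cells; symbols give the array number. The shift between groups is 4.80 for Il2ra minus Il15ra, 5.72 for Il2ra minus Il2rb, 0.77 for Il7r minus Crlf2 and 3.60 for Il4ra minus Il13ra1.

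Among the ligands, 1 of 8 rose, 2 fell and 5 did not pass, where 19.7% of all genes rose and 16.7% fell. Il15, the gene of the cytokine that sustains NK cells and which myeloid cells are known to make, had relative expression of -0.96, -0.65 and -0.68 on the IL-18 arrays, against 0.65, 1.02 and 0.71 on the unstimulated arrays. The groups were well separated, with a log2 change of -1.56 ± 0.12 (limma adjusted p 3.06e-06), in the same arrays in which the monocyte markers fell, and the part of those cells was not tested. Il4 fell with -0.29 ± 0.08 (limma adjusted p 0.0119). Its call ended without IL-18 replicate 2 (-0.24, adjusted p 0.0649), and over 17 alternatives its adjusted p ran from 0.0077 to 0.0649. Il13 rose by 0.23 ± 0.08 (limma adjusted p 0.0471), a call that held in 9 of 17 alternatives. Without any single array other than unstimulated replicate 2 it was lost, with changes of 0.18 to 0.26 and adjusted p from 0.0666 to 0.158. Il2, Il7, Il9, Il21 and Tslp had log2 changes from -0.08 to 0.13 that did not pass.

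Of 14 measured genes that carry the signal inside the cell, 1 rose and 6 fell, and 7 did not pass, beside 19.7% of all genes rising and 16.7% falling. The median was -0.17. Stat5a, one of the pair of STAT5 genes, rose by 0.83 ± 0.08, while Stat5b, at 0.12 ± 0.09, did not pass (limma adjusted p 0.338). Jak1, the kinase bound by the private chains, fell with -0.72 ± 0.08, Stat6, the STAT of the IL-4 receptor, with -0.65 ± 0.07, and Pik3r1, a regulatory subunit of PI3 kinase, with -0.86 ± 0.10 (limma adjusted p at most 6.98e-05 for these and Stat5a).

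Of 8 feedback inhibitors 2 rose and 2 fell, 4 not passing, which is close to the 19.7% and 16.7% of all genes. The median was 0.04. Cish and Socs1, inhibitors that STAT5 is known to induce and that dampen JAK signalling, rose by 2.89 ± 0.12 and 1.82 ± 0.10 (limma adjusted p 5.87e-08 and 3.74e-07). Socs2 and Socs3, of the same family, had changes of 0.05 ± 0.11 and 0.03 ± 0.11 and did not pass. The phosphatase gene Ptpn6 (SHP-1) and the ubiquitin ligase gene Cbl fell with -0.53 ± 0.11 and -0.54 ± 0.08. Of 10 genes listed as STAT5 targets, 6 rose and 2 fell, 2 not passing, again beside 19.7% and 16.7% of all genes. The median was 0.74, and -0.06 over all genes. Lta (lymphotoxin alpha) rose by 2.98 ± 0.17 (3.61 with quantile normalization), the kinase gene Pim2 by 1.84 ± 0.09 and Myc by 1.77 ± 0.12. Ccnd3, a D-type cyclin gene, fell with -1.17 ± 0.08, and Mcl1, a survival gene that NK cells depend on, with -1.07 ± 0.10. Its relatives in survival, Bcl2l1 and Bcl2, rose by 1.16 ± 0.08 and 0.83 ± 0.08 (limma adjusted p 1.10e-06 and 2.39e-05). IL-2 was part of the culture, and the targets cannot tell IL-18, IL-2, culture and sort gate apart.

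Of 9 measured transcription factors known to act on the receptor genes, 1 rose, 6 fell and 2 did not pass, beside 19.7% of all genes rising and 16.7% falling, and the median was -0.51. Tbx21 (T-bet) and Eomes, which support Il2rb expression in mouse lymphocytes, fell with -1.99 ± 0.10 and -0.58 ± 0.11. Runx1 and Ets1 fell with -1.53 ± 0.09 and -1.08 ± 0.08. Foxo1, an activator of Il7r in mouse T cells, was at 0.17 ± 0.10 without passing (limma adjusted p 0.208), and Gfi1, a repressor of Il7r, fell with -0.35 ± 0.10 (adjusted p 0.0208). Gabpa, which also activates Il7r, rose by 0.23 ± 0.08 (limma adjusted p 0.0433). Its call was lost without any single array other than unstimulated replicate 2, with changes of 0.19 to 0.25 and adjusted p from 0.0834 to 0.132.

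Of 28 measured cytokine receptors outside the family, 2 rose, 13 fell and 13 did not pass, beside 19.7% of all genes rising and 16.7% falling. The median was -0.23, where the 7 gamma chain receptors had 4 rising, 1 falling and a median of 0.52. Il12rb1, a chain shared by the receptors for IL-12 and IL-23, rose by 1.21 ± 0.16 (limma adjusted p 0.00018). The other to rise was Il20ra, by 0.26 ± 0.09 (adjusted p 0.0355), a call lost without IL-18 replicate 1 or 2 or unstimulated replicate 2 or 3 (changes of 0.21 to 0.24, adjusted p from 0.0665 to 0.142). Csf2rb and Csf2rb2, close copies that encode the beta chains for GM-CSF, IL-3 and IL-5 and can share probes, fell with -3.51 ± 0.29 and -2.85 ± 0.42, and Ifngr2, a chain of the interferon gamma receptor, with -3.04 ± 0.16. Csf2rb2 had relative expression of -2.28, -0.54 and -2.35 on the IL-18 arrays and 1.38, 1.46 and 0.54 on the unstimulated arrays, and without IL-18 replicate 2, the array that stood apart, its change was -3.44. Myeloid cells, mast cells and basophils are known to carry the Csf2rb chains. The monocyte and neutrophil markers fell in the same arrays with the values given above, and 4 of 5 mast cell and basophil markers fell as well. The mean of those 5 lay between -2.24 and -0.43 on the IL-18 arrays and between 0.44 and 1.75 on the unstimulated arrays. Mcpt8, a basophil protease gene among them, was picked after its values were seen. It had -4.02, -0.30 and -4.08 on the IL-18 arrays and 1.72, 2.05 and 0.30 on the unstimulated arrays. Mcpt4, the marker that did not pass, had -0.05, -0.06 and -0.09 against 0.05, 0.07 and 0.09. The part of any of those cells in these results was not tested. No test of the difference between the 2 sets of receptors was made.

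**Figure D4:**
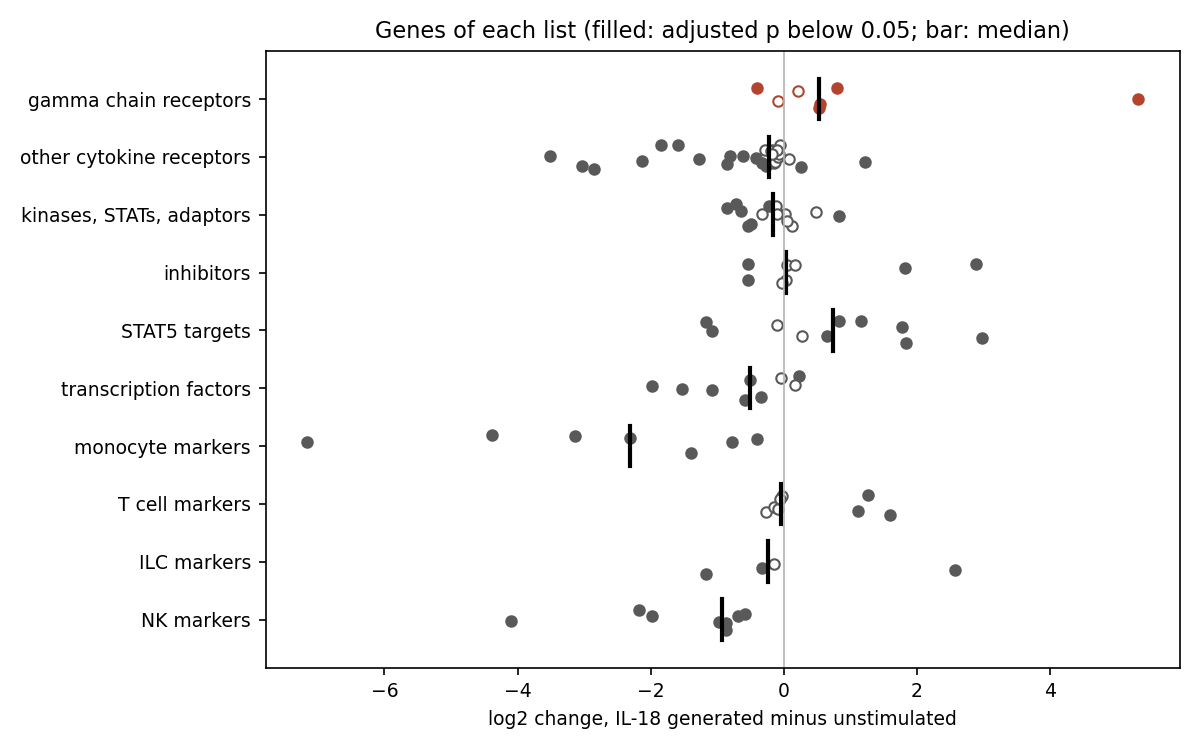
Log2 change (horizontal axis, IL-18 generated minus unstimulated) of each measured gene in the gamma chain receptor family and 9 other lists; filled points passed at an adjusted p below 0.05, bars mark the list's median, and vertical scatter within a list has no meaning. The gamma chain receptors have a median of 0.52 beside -0.23 for other cytokine receptors, and the monocyte and NK markers all lie below 0.

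By the rule used to find genes with the most similar pattern, the 2 closest to Il2ra over the 6 arrays were Asns and Sema6d. Asns, which encodes asparagine synthetase, differed from Il2ra by 0.24 (root mean square over arrays, log2), and its log2 change was 4.89 ± 0.11. Sema6d, a semaphorin gene, differed by 0.31, with a change of 4.75 ± 0.11. No other chain reached the size the rule required.

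Of the 6 genes of the sort, Kit (c-kit) rose by 2.79 ± 0.13 and Itgam (CD11b) fell with -5.32 ± 0.11 (-4.62 with quantile normalization), in the direction of the gates. The CD3 chain genes Cd3d, Cd3e and Cd3g rose by 1.11, 1.26 and 1.60 although both gates lacked CD3. Klrb1c, which encodes the NK1.1 antigen positive in both gates, fell with -2.03 ± 0.11. Over all genes, arrays of 1 group differed by 0.16 to 0.23 (root mean square, log2), and arrays of different groups by 0.57 to 0.63. The mast cell and basophil markers had a median of -2.94, with the array means given above. Of the marker lists not yet given, 6 of 6 B cell markers fell (median -0.78), and among 7 dendritic cell markers 5 fell and 1 rose (median -0.42).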

How the data were processed

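The deposited table holds the authors' processed values, read here as log2, for 28815 probe sets on 6 arrays. Per the labels, RNA was column purified and biotin labelled with the WT Terminal Labeling Kit. The sources used here name no summarization, normalization or log base. Each probe set was found centred on its median over the arrays (largest departure 5e-07). Base 2 was assumed, and every fold change given here rests on it. Of 239 probe sets that spanned more than 3.09, the most that natural logarithms of a 16-bit scanner allow for values of at least 8, 44 lay within 0.15 of a step of the single-precision grid for numbers from 8 to 16 on all arrays. By chance 0.243% would if values lay on no grid. But 97.8% of all probe sets lay on the finer grid of smaller numbers, which meets the coarser steps more often. The chance share is therefore higher than 0.243% and was not computed, so this count does not decide the base. Log10 values could not span the widest range, 7.77.

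Of the probe sets, 21780 had 1 gene symbol in the platform annotation, 1605 several and 5430 were not listed. Those with 1 symbol were averaged per gene. The 19935 genes went into 1 fit of limma 3.58.1 under R 4.3.3, by lmFit and then eBayes with neither trend nor covariates, and p-values were adjusted by Benjamini-Hochberg. "Rose" and "fell" mean an adjusted p below 0.05. The procedure was tested on simulated data. No set test was run, and pairs of genes were compared by exact permutation over arrays. For arrays, their number limits the precision. Tables and figures used Python 3.11.15, pandas 2.3.3, numpy 2.4.6 and matplotlib 3.10.9.

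Members, lists and tests were chosen with earlier results of these data known. Named were all members, partner chains, ligands and sort genes, up to 3 increases and 3 decreases per other list, and the 2 genes nearest in pattern to a member changed at least 2-fold. Stat5b, Socs2, Socs3, Eomes, Foxo1, Gfi1, Bcl2l1, Bcl2, the flanking genes and the single marker genes were named in addition, with their values seen.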

Additional observations from a re-analysis of the deposited data

How the results depend on the processing

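The counts of 4 chains higher and 1 lower were the same under robust and trended variance, quantile normalization, centring of arrays, array weights, other handling of probe sets, leaving out each array and leaving out both arrays numbered 2 (the last added after the data were seen). Requiring a change of at least 2-fold left 1 chain higher and 0 lower by limma (4 and 1 at the adjusted p alone), 721 genes higher and 647 lower over all genes (3935 and 3331 at the adjusted p alone), and 11 higher and 16 lower in the pathway lists (17 and 34). Each of the 5 called chains passed in 17 of 17 alternatives, and Il9r and Il21r in 0 of 17. The highest adjusted p among called chains was 0.0267, for Il4ra. Across all genes, deviations from the group mean correlated at 0.24, 0.0076 and -0.02 between replicates of the same number (1, 2 and 3). The highest correlation, 0.25, was between IL-18 replicate 3 and unstimulated replicate 2. Not every array correlated best with its own number. For 5 of the 7 chains, though, both arrays numbered 2 were the lowest of their group. With the replicate block 4 chains were higher and 1 lower, and 3949 genes were higher and 3330 lower. The block took the limma adjusted p of Il21r from 0.308 to 0.0953, still without a pass. In the pair differences the replicate block left the value of 5.72 for Il2ra over Il2rb as it was, with an exact p of 0.25, the smallest that 3 pairs allow. The block also ended the calls of Il13 (adjusted p 0.0577) and Gabpa (0.0689), and testing all probe sets ended that of Il13 (0.0515). Leaving out both arrays numbered 2 ended those of Il4 (0.0630), Il13 (0.0708) and Il20ra (0.186). The cause of these losses was not tested. Signal over background was not available here, so whether dim probe sets limited Il9r or Il21r is unknown.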
